A study of Homo sapiens with 6 samples.

Results

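Axon guidance genes encode the secreted and membrane-bound cues, and the receptors for them, that steer growing nerve fibres. The set described here took every gene symbol of the expression table that begins with the family names of the class 3 to 7 semaphorins, plexins, neuropilins, ephrins, EPH receptors, SLITs, ROBOs, netrins and UNC5 receptors, leaving out antisense and intronic transcripts. It held 70 of 26255 symbols, of which 35 were ligands and 33 were receptors. The other 2, UNC50 and UNC5CL, match by name only and are not netrin receptors. RNA-seq was run on MDA-MB-231 cells, a human triple-negative breast cancer line of mesenchymal appearance, in 3 libraries carrying a non-targeting hairpin (shNT) and 3 libraries labelled shGPR81, whose hairpin is directed at the lactate receptor GPR81 (gene symbol HCAR1). Both groups were made by lentiviral transduction and puromycin selection of the same line, and no other treatment, time or genotype was given for either. The comparison asked which genes differ when the lactate receptor is silenced. More than 1 GPR81 hairpin was made in the study, the sources used here do not say which was sequenced, and nothing says whether the 3 libraries of a group came from separate cultures, so p-values measure the spread between these libraries, which may be technical.

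In these pathways a ligand on or from 1 cell changes the actin skeleton and adhesion of the cell that carries its receptor. Semaphorins signal through plexins, with neuropilins as co-receptors for most class 3 members. Ephrins bind EPH receptor tyrosine kinases at cell contacts, SLITs bind ROBO receptors, and netrins bind DCC, neogenin and UNC5 receptors. The same molecules are made outside the nervous system, where they take part in vessel growth, epithelial organisation and the movement of tumor cells.

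Values were FPKM, that is fragments per kilobase of transcript, scaled for library size, so that levels of different genes can be set side by side. Differences are on the scale of log2(FPKM + 0.1), labelled shGPR81 minus shNT, with the standard error (SE) and a Benjamini-Hochberg adjusted p from limma over all 14349 tested genes. A gene was tested when 3 or more libraries reached 0.1 FPKM. A gene was called where the adjusted p was under 0.05 and the fold change was above 1.5. On this scale the change of a gene with a low level is understated.

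The targeted gene was examined first. HCAR1, on chromosome 12 from 123210623 to 123215391, minus strand (GRCh37), was at 0.968, 1.02 and 1.36 FPKM in shNT and at 0.978, 0.891 and 0.396 FPKM in the libraries labelled shGPR81. The groups overlapped, and only labelled shGPR81 replicate 3 lay clearly below the rest. The log2 difference of -0.57 (SE 0.31) did not pass the test (adjusted p = 0.38), and it was -0.22 without labelled shGPR81 replicate 3. HCAR1 rested on 37, 40 and 52 reads in shNT and on 40, 36 and 16 reads in labelled shGPR81. The ratio of reads was 0.677, with a Clopper-Pearson interval of 0.513 to 0.892 that covers counting error only. The silencing was therefore not visible in every library, and the group is called by its label. Apart from the RNA-seq, the paper reports lower GPR81 in its shGPR81 lines by RT-qPCR and western blotting. Reads recovered from the steps of the FPKM values put the libraries at 11922809 to 12216715 reads for shNT and 12605413 to 12765756 for labelled shGPR81. The 8 markers of a mesenchymal breast cancer line were all measured and summed to 5480 to 6590 FPKM in shNT and 6610 to 7260 FPKM in labelled shGPR81, with 0 called. VIM made up 59.6% of this sum. The groups did not overlap in 4 of the 8, with VIM, ANXA1 and MSN higher and CD44 lower. The log2 difference was 0.30 for MSN (adjusted p = 0.0378 in limma) and -0.20 for CD44 (adjusted p = 0.0566), both under the fold threshold. The luminal markers ESR1, PGR and CDH1 were at 0 throughout, and ERBB3 was the 1 luminal marker called (log2 difference 0.85), a call kept in 1 of the 6 fits with a library left out. SPDEF, 56.1% of the luminal sum, had a difference of -0.43 (adjusted p = 0.181). The sums of the neuron and glia markers were 35.3 to 36.6 and 35.2 to 38.0 FPKM, of which MBP made up 97.3%, and STMN2 was at 0. The synaptic marker SYT1 was at 0.741, 0.643 and 0.724 FPKM in shNT and at 0.918, 1.11 and 1.29 FPKM in labelled shGPR81, without overlap (log2 difference 0.58, adjusted p = 0.113), and its part in the results was not tested. The fibroblast markers summed to at most 0.0114 FPKM and COL1A2, DCN and LUM were at 0. The leukocyte markers, almost wholly CD14, summed to 2.24 to 4.29 FPKM in shNT and to 1.14 to 1.77 FPKM in labelled shGPR81, with CD3E and ITGAM at 0. Whether the lower CD14 level has a part in any result was not tested.

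Of the 70 members, 6 (EPHA3, EPHA7, EPHA8, EPHB1, SEMA4A and SEMA5B) were listed at 0 in all 6 libraries, 16 lay below the expression filter and 48 were tested. Those below it were EFNA2, EPHA1, EPHB6, NTN1, NTN3, NTN5, PLXNA4, ROBO2, SEMA5A, SEMA6A, SLIT1, SLIT3, UNC5A, UNC5B, UNC5C and UNC5D. The levels spanned EPHA2 at 122 FPKM and NRP1 at 67.5 FPKM down to values worth a few reads, and 33 members had a mean of at least 1 FPKM and 13 a mean of at least 10 FPKM. The 3 receptors NRP2, ROBO1 and EPHA4 were called higher in labelled shGPR81, and the ligand SEMA6D was called lower. These are bulk RNA levels, in which fewer cells expressing a gene and less RNA per cell cannot be told apart. All 4 calls were lost when the fold threshold was itself tested with limma's treat (adjusted p = 0.115 to 0.331). Over all tested genes 0.955% were called higher and 1.59% lower, against 6.25% and 2.08% of the tested members. The set was chosen with the rise of NRP2 known, and SEMA6D passed the filter through the shNT libraries alone, so the member shares are no independent support. With so few members called, the shares describe these libraries only. The other 44 tested members were not called. Before adjustment 17 members were under 0.05 in limma, beside 2797 of all 14349 tested genes, and 5 had an adjusted p under 0.05 whatever their fold, which is 10.4% of those tested against 5.13% of all genes. The groups did not overlap in 21 members (43.8%), 12 higher and 9 lower in labelled shGPR81, where 25.6% of all tested genes did not overlap. Among the lower ones, SEMA6D and SEMA3G passed the filter through the shNT libraries alone. The median log2 difference of the tested members was 0.03 beside 0.01 over all tested genes, and 25 differences were positive and 23 negative.

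**Figure D1:**
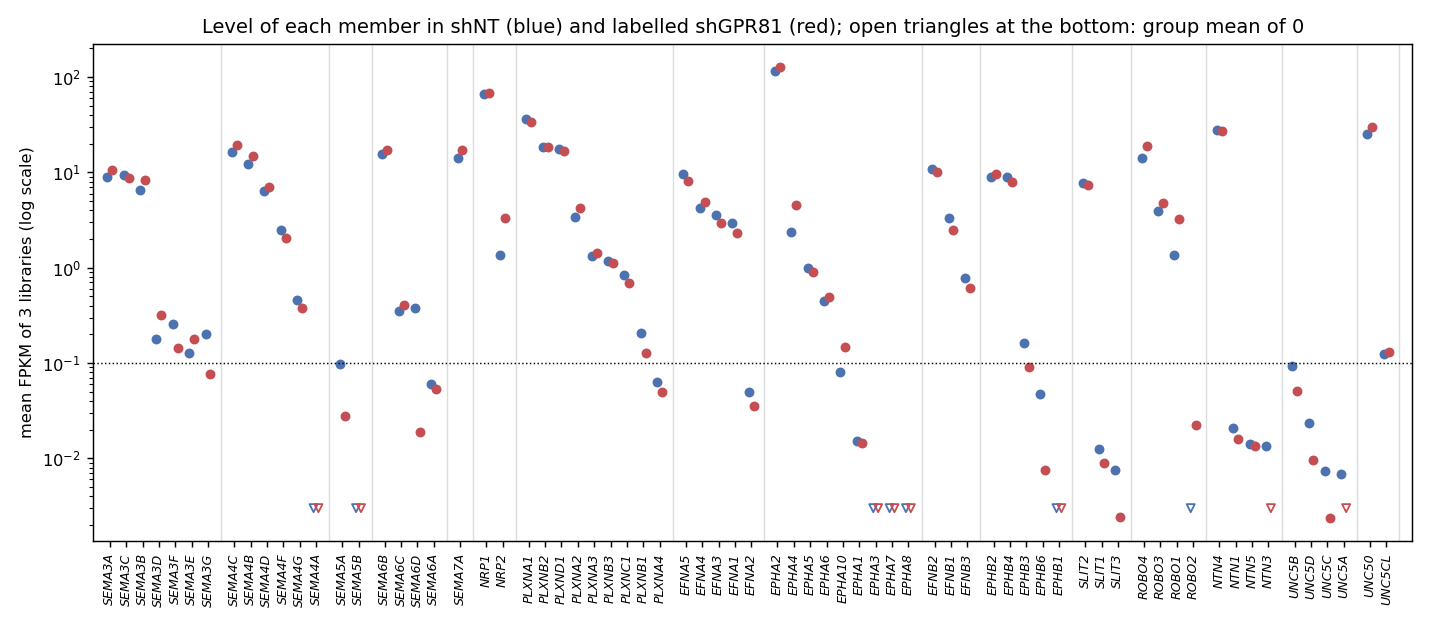
Mean FPKM of 3 libraries (log scale) of each of the 70 members, by family, in shNT (blue) and labelled shGPR81 (red), with open triangles for a group mean of 0 and a dotted line at 0.1 FPKM, the level of the filter. EPHA2 and NRP1 are the most abundant members, and the points of NRP2, ROBO1 and EPHA4 are the most separated among members above 1 FPKM, while several members near or below the filter, such as SEMA6D, SEMA5A, SEMA3G and EPHB6, lie further apart.

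The sequences around the starts of the members that moved are shown here, together with SEMA5A, so that the regulatory letters can be read beside the values. They are RefSeq promoter windows of 300 bases (250 before to 50 after the annotated start) on GRCh38.p14, each given 5′ to 3′ on the strand of the gene. Where a gene has several windows the most downstream start is shown, which is the second of 2 for ROBO1 and EPHA4 and the third of 3 for SEMA6D, and the FPKM do not say which start was used. Capitals mark the GC box GGGCGG, in either orientation, and TGACG or its reverse CGTCA, the core of the cAMP response element. NRP2 is at chr2:205682251-205682550 (plus strand), ROBO1 at chr3:79019410-79019709 (minus), EPHA4 at chr2:221572255-221572554 (minus), SEMA6D at chr15:47718239-47718538 (plus) and SEMA5A at chr5:9546026-9546325 (minus).
NRP2: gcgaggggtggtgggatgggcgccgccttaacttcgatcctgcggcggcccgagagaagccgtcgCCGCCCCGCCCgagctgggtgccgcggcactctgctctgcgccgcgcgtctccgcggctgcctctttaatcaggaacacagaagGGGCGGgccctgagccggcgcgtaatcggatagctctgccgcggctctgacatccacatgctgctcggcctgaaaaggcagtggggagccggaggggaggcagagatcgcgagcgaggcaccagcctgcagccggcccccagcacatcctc
ROBO1: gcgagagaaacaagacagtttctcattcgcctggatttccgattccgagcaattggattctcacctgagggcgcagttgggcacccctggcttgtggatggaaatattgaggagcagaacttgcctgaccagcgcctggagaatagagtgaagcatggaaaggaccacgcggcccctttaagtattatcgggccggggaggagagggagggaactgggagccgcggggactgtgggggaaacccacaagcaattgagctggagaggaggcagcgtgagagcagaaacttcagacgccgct
EPHA4: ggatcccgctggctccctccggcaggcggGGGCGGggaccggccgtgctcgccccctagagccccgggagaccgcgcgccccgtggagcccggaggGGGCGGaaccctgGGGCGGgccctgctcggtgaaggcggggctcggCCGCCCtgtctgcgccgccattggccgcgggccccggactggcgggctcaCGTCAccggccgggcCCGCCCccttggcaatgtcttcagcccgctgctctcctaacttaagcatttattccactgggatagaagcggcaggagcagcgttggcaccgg
SEMA6D: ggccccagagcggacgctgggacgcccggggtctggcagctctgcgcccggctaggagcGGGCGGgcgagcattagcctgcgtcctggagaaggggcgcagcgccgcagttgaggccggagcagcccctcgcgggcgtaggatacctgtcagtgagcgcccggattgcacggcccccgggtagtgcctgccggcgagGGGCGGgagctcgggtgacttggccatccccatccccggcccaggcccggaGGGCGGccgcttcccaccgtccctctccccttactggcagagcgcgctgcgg
SEMA5A: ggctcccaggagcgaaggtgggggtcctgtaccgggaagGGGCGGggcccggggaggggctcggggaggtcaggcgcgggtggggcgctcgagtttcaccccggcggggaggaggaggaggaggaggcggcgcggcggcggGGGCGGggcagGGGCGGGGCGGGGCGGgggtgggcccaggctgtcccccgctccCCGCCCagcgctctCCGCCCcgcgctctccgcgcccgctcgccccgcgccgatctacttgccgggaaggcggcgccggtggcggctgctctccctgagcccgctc

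The NRP2 and SEMA6D windows shown held 3 GC boxes each, that of EPHA4 held 5, that of SEMA5A 7 and that of ROBO1 0. The EPHA4 window alone among these 5 held the core TGACG, and the whole cAMP response element TGACGTCA was in none of them. The counts depend on the start. The EPHA4 window not shown held 1 GC box and 0 TGACG, and those of SEMA6D and ROBO1 not shown held 0 of either. RefSeq windows were found for 60 of the 70 members, 92 windows in all. Of these, 73.9% held a GC box against 45% of all 35116 windows, 25% held TGACG against 24.6%, and 3.26% held TGACGTCA against 1.85%. The letters TATAAA were in 3.26% against 11.5%, and CACCTG, an E-box, in 18.5% against 20.6%, all counted on both strands. The core TGACG lies within TGACGTCA, so those counts overlap. The member windows were also richer in G and C, with a median of 66.2% against 58.7% in all windows. A match is a description of the letters and no evidence of binding.

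NRP2, a co-receptor of class 3 semaphorins and of vascular endothelial growth factors, rose. It lies on chromosome 2 from 206546714 to 206662857, plus strand (GRCh37), and was at 1.46, 1.25 and 1.40 FPKM in shNT and at 3.18, 3.70 and 3 FPKM in labelled shGPR81. Every labelled shGPR81 library was above every shNT library, and the means of 1.37 ± 0.11 and 3.29 ± 0.362 FPKM (SD, n = 3) differed 2.4-fold. The log2 difference was 1.20 (SE 0.13, 95% interval 0.91 to 1.5, adjusted p = 0.00264), and it was 1.12 to 1.26 when any 1 library was left out. The set was chosen with this rise known, so it is no independent support for it. Its paralog NRP1, the dominant neuropilin of these cells, was at 67.0 ± 1.20 and 68.0 ± 1.94 FPKM, with overlapping groups and a log2 difference of 0.02 (95% interval -0.09 to 0.13). NRP2 accounted for 2 ± 0.127% of the summed neuropilin FPKM in shNT and 4.62 ± 0.37% in labelled shGPR81, so that most neuropilin mRNA was NRP1 in both.

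Among the plexins, the signal-transducing receptors of semaphorins, 0 of 8 tested members were called. PLXNA1, the most abundant, was at 36.4 ± 3.21 and 33.8 ± 0.932 FPKM (log2 difference -0.10, adjusted p = 0.514), and the PLXNB2 and PLXND1 levels were near 18.5 and 17.2 FPKM with differences of -0.01 and -0.05. PLXNA2 did not overlap between groups, at 3.01, 3.46 and 3.65 FPKM and at 3.96, 4.43 and 4.38 FPKM, but its difference of 0.33 did not pass (adjusted p = 0.138). PLXNB1, a receptor of SEMA4D, rested on 24, 21 and 15 reads in shNT and on 10, 14 and 15 reads in labelled shGPR81 (log2 difference -0.42, adjusted p = 0.466). The summed plexin FPKM were 79.5 ± 6.33 and 76.7 ± 0.113. PLXNA3, PLXNB3 and PLXNC1 had differences of 0.08, -0.08 and -0.25 with overlapping groups, and PLXNA4 was below the filter at 10 to 13 reads and 6 to 11 reads.

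The semaphorins, which are the ligands of these receptors, held 16 tested members of 20, of which SEMA6D fell and 0 rose. Of their differences 10 were positive and 6 negative, and the summed FPKM was 94 ± 5.6 in shNT (88.1 to 99.2) and 107 ± 2.65 in labelled shGPR81 (104 to 109), without overlap and with no test. SEMA6D is a transmembrane semaphorin that binds PLXNA1, on chromosome 15 from 47476298 to 48066425, plus strand (GRCh37). It was at 0.417, 0.409 and 0.319 FPKM in shNT and at 0.0325, 0.0242 and 0 FPKM in labelled shGPR81. The groups were far apart for so low a gene, with means of 0.382 ± 0.054 and 0.0189 ± 0.0169 FPKM (SD, n = 3). The log2 difference was -2.02 (SE 0.28, 95% interval -2.67 to -1.37, adjusted p = 0.0077). It passed the filter through the shNT libraries alone, so its place among the tested members rests on the group where it is high. On its longest annotated transcript of 6099 bases 1 read was worth about 0.0133 FPKM, and the labelled shGPR81 values are thus worth a few reads at most, so the size of the fall is imprecise. It was -4 with a pseudocount of 0.01 and -0.44 with a pseudocount of 1. SEMA6D made up 2.39 ± 0.637% of the class 6 sum in shNT and 0.114 ± 0.1% in labelled shGPR81, while SEMA6B, at 15.6 ± 2.47 and 17.1 ± 1.97 FPKM, held nearly all of it and SEMA6C differed by 0.14 with overlap. The antisense transcript LINC01491 shares 10 exon bases with SEMA6D in the annotation.

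SEMA5A, a transmembrane semaphorin with thrombospondin repeats, was selected by the study on these same samples and is named by the choice of this set, so its values are a description. It lies on chromosome 5 from 9035145 to 9546187, minus strand (GRCh37). It was at 0.0999, 0.110 and 0.0811 FPKM in shNT, from 16, 18 and 13 reads, and at 0.0233, 0.0414 and 0.0177 FPKM in labelled shGPR81, from 4, 7 and 3 reads. The groups did not overlap, and the ratio of reads was 0.283 with a 95% Clopper-Pearson interval of 0.144 to 0.523 that covers counting error only. SEMA5A lay below the filter and was not part of the main test. In a fit without the filter its log2 difference was -0.63 (SE 0.15, adjusted p = 0.0938), and the exact two-sided permutation test over the libraries gave p = 0.1, the smallest possible with 3 against 3. Its paralog SEMA5B was at 0 throughout.

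The 7 class 3 semaphorins, secreted ligands of neuropilin and plexin complexes, were all tested and 0 were called. SEMA3A, the prototype of growth cone collapse, was at 8.89 ± 0.764 and 10.6 ± 0.596 FPKM, with no overlap and a log2 difference of 0.25 (adjusted p = 0.162). SEMA3B, also without overlap, differed by 0.35 and SEMA3C by -0.10. SEMA3D was at 22, 12 and 11 reads and then 22, 39 and 24 reads (log2 difference 0.59, adjusted p = 0.347), and SEMA3F, which binds NRP2, was at 9, 10 and 16 reads and then 5, 5 and 11 reads (-0.55, adjusted p = 0.419), and the groups overlapped in both. SEMA3G, another ligand of NRP2, had the second lowest difference of the tested members, with 8, 15 and 15 reads in shNT against 4, 5 and 6 in labelled shGPR81. Its groups stood apart, yet the difference of -0.76 (SE 0.30) had an adjusted p of 0.214. SEMA3G passed the filter through the shNT libraries alone, so its place among the tested members rests on the group where it is high. SEMA3E was at 0.128 ± 0.013 and 0.177 ± 0.0231 FPKM.

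In class 4, whose members are membrane-bound ligands of B-type plexins, 0 of 5 tested were called. SEMA4C led at 16.4 ± 2.41 and 19.6 ± 0.89 FPKM (log2 difference 0.27, adjusted p = 0.215). SEMA4B did not overlap, at 11.6, 12.6 and 12.6 FPKM and at 14.7, 14.3 and 15 FPKM, with a difference of 0.26 (adjusted p = 0.0657). SEMA4D, the ligand of PLXNB1, was at 6.40 ± 0.389 and 7.08 ± 0.545 FPKM with overlap. SEMA4F and SEMA4G had differences of -0.24 and -0.25. SEMA7A, a lipid-anchored semaphorin that signals through PLXNC1 and integrins, was at 12.6, 15.1 and 14.4 FPKM and at 18.3, 16.7 and 17.1 FPKM. The groups stood apart, and its difference of 0.31 missed the threshold (adjusted p = 0.0831).

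EPHA4, a receptor tyrosine kinase that binds both A-type and B-type ephrins, rose. It lies on chromosome 2 from 222282747 to 222438922, minus strand (GRCh37), and was at 2.43, 2.20 and 2.43 FPKM in shNT and at 4.55, 4.71 and 4.49 FPKM in labelled shGPR81. The groups were well separated, with means of 2.35 ± 0.133 and 4.59 ± 0.115 FPKM (SD, n = 3), a 1.95-fold difference. The log2 difference was 0.94 (SE 0.09, 95% interval 0.72 to 1.15, adjusted p = 0.00213), and 0.89 to 0.96 with each library left out. EPHA4 shares 309 exon bases with an unnamed antisense transcript, and NRP2 shares 147 with another. Among other genes described here, antisense transcripts share up to 673 exon bases with ROBO4, 2682 with RGMB and 223 with SEMA5A. The kit keeps the strand, but whether the counting used it was not given in the sources used here.

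Of the other EPHA receptors tested, 0 of 4 were called. EPHA2, often abundant in basal-like breast cancer lines, made up 96.1% of the summed FPKM of all EPHA receptors, EPHA4 included. It was at 99.5, 121 and 125 FPKM in shNT and at 123, 127 and 138 FPKM in labelled shGPR81, with overlapping groups and a log2 difference of 0.18 (95% interval -0.04 to 0.39, adjusted p = 0.366). EPHA4 was 2 ± 0.308% of the sum in shNT and 3.39 ± 0.247% in labelled shGPR81. EPHA10, a member without kinase activity, was near the filter at 0.0797 ± 0.0705 and 0.149 ± 0.0534 FPKM (log2 difference 0.52, adjusted p = 0.528), and the EPHA5 and EPHA6 groups overlapped. Among EPHB receptors 0 of 3 tested were called and 0 were without overlap. EPHB2 was at 8.99 ± 0.938 and 9.67 ± 0.885 FPKM, EPHB4 at 9.05 ± 1.18 and 7.98 ± 0.691 FPKM, and EPHB3 at 6, 13 and 8 reads against 4, 2 and 10 reads.

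The ephrins, the ligands of these kinases, had negative differences in 6 of 7 tested members, of which 5 did not overlap between groups and 0 were called. Over all 14349 tested genes 6900 differences were negative and 25.6% of genes did not overlap, and the ephrins were not tested as a family. EFNB1 was at 133, 157 and 141 reads in shNT and at 98, 115 and 127 reads in labelled shGPR81. Its difference of -0.41 (SE 0.13) was the most negative among the ephrins and did not pass (adjusted p = 0.128). EFNA1 differed by -0.36 (adjusted p = 0.188) and EFNA3 by -0.27 (adjusted p = 0.168). The most abundant of each type, EFNB2 at 10.9 ± 0.12 and 10.2 ± 0.417 FPKM and EFNA5 at 9.56 ± 1.3 and 8.12 ± 0.412 FPKM, differed by -0.09 and -0.23. EFNB3 differed by -0.34 with overlap, and EFNA4 by 0.18 with overlap. The summed A-type ephrins were at 20.4 ± 1.43 and 18.3 ± 1.11 FPKM, and the B-type at 15 ± 0.342 and 13.3 ± 0.443 FPKM. EFNA3 and EFNA4 share exons with the readthrough gene EFNA4-EFNA3, so their split is uncertain.

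**Figure D2:**
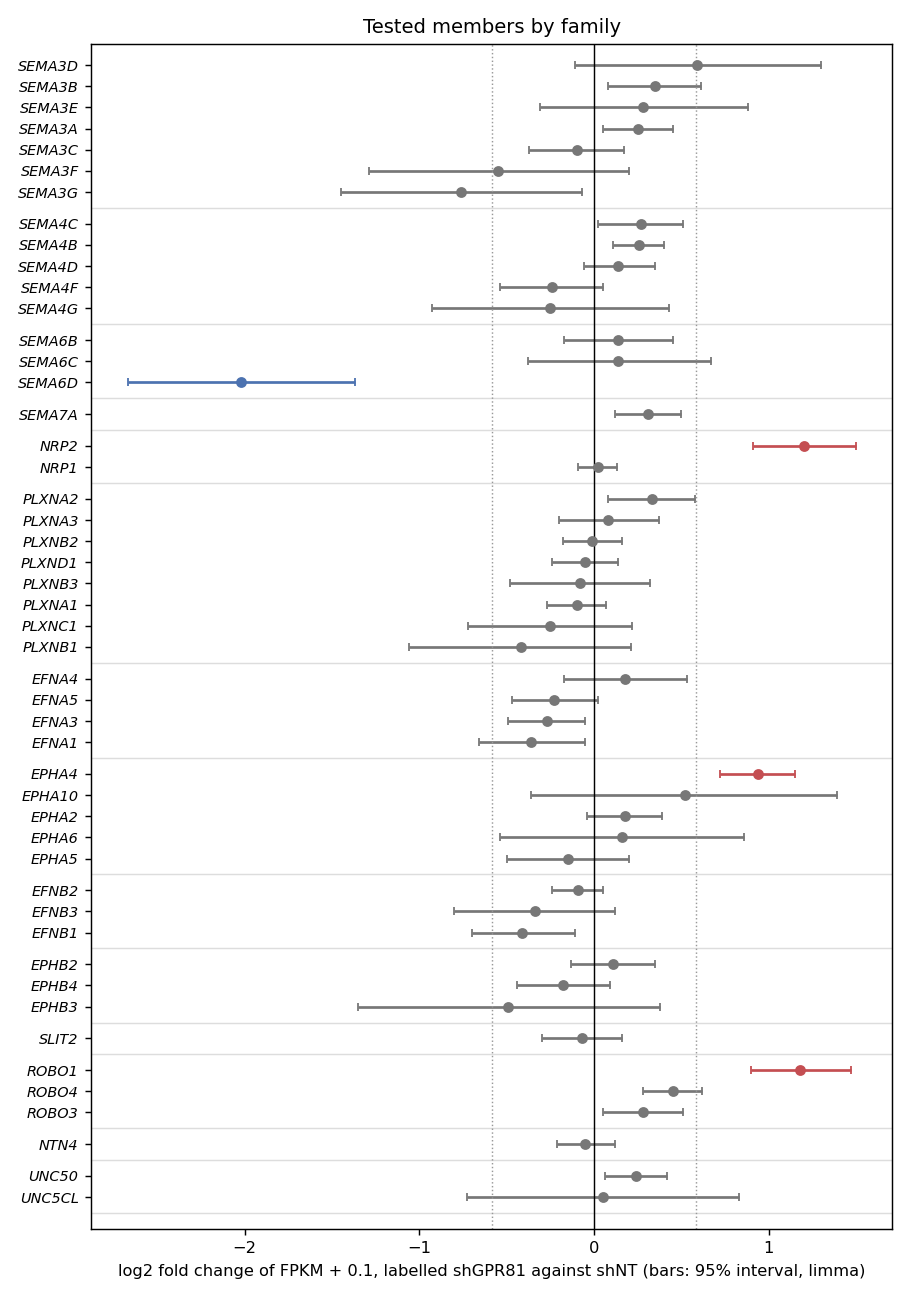
Log2 difference (labelled shGPR81 minus shNT, of FPKM + 0.1) of the 48 tested members by family, with 95% intervals from limma and dotted lines at a fold change of 1.5 either way. NRP2, ROBO1 and EPHA4 (red) were called higher and SEMA6D (blue) lower, while all other members (grey) were not called.

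ROBO1, a receptor of SLIT ligands, rose. It spans chromosome 3 from 78646389 to 79817148, minus strand (GRCh37), and was at 1.24, 1.52 and 1.33 FPKM in shNT and at 3.42, 3.16 and 3.06 FPKM in labelled shGPR81. The lowest labelled shGPR81 library was above the highest shNT library by more than the range within either group, and the means were 1.36 ± 0.144 and 3.21 ± 0.184 FPKM (SD, n = 3), a 2.36-fold difference. The log2 difference was 1.18 (SE 0.12, 95% interval 0.90 to 1.47, adjusted p = 0.0024), and 1.12 to 1.26 with each library left out.

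ROBO4, a receptor known from endothelial cells, was the most abundant ROBO and was at 12.8, 14.7 and 14.5 FPKM in shNT and at 19, 18.5 and 19.8 FPKM in labelled shGPR81. The groups did not overlap, and the log2 difference of 0.45 (SE 0.07, adjusted p = 0.0137) corresponds to a 1.37-fold change, under the 1.5-fold threshold. Its adjusted p ranged from 0.00926 to 0.0706 with each library left out, and was above 0.05 without any of the labelled shGPR81 libraries, the highest without replicate 1. The endothelial markers summed to 0.818 to 1.05 FPKM in shNT and 0.798 to 1.23 FPKM in labelled shGPR81, mostly KDR, and CDH5 was at 0. ROBO3, the neighbour of ROBO4 on chromosome 11 on the opposite strand, was at 221, 245 and 246 reads and at 340, 297 and 282 reads, also without overlap (log2 difference 0.28, adjusted p = 0.166). The groups thus did not overlap in any of the 3 tested ROBO receptors, where 1847 of 14349 tested genes were without overlap and higher, and ROBO1 was the 1 called. Their summed FPKM with ROBO2 was 19.3 ± 1.36 against 27.2 ± 0.695. ROBO1 made up 7.05 ± 0.442% of that sum in shNT and 11.8 ± 0.564% in labelled shGPR81. ROBO2 was listed at 0 in every shNT library and at 0.0174, 0.0404 and 0.00881 FPKM in labelled shGPR81, too low for a fold. Among the SLIT ligands only SLIT2 was tested, at 7.73 ± 0.304 and 7.39 ± 0.85 FPKM (log2 difference -0.07, 95% interval -0.30 to 0.16), and SLIT1 and SLIT3 had at most 3 reads in any library.

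**Figure D3:**
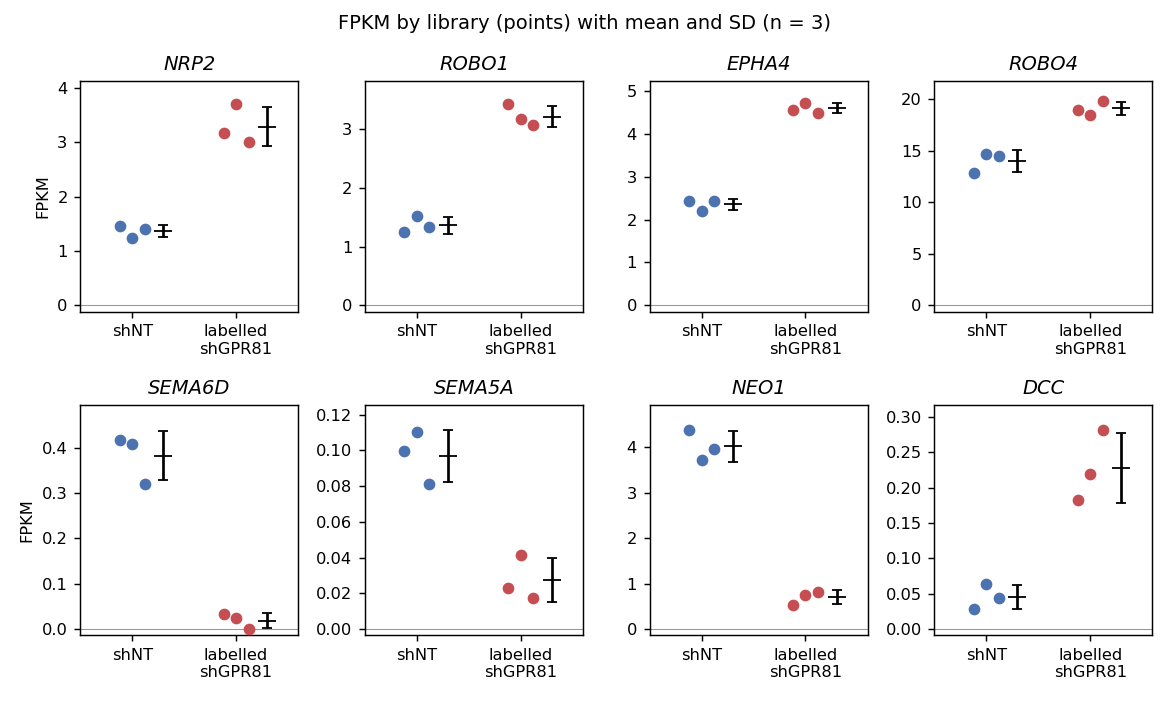
FPKM of each library (points) with the mean and SD (n = 3, black) for 6 members and the netrin receptors NEO1 and DCC, each panel on its own linear axis. The 8 genes were picked with their values known, so the lack of overlap in all of them follows from the choice. Over all tested genes 25.6% did not overlap. NRP2, ROBO1, EPHA4, ROBO4 and DCC are higher and SEMA6D, SEMA5A and NEO1 lower in labelled shGPR81.

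Of the netrins and UNC5 receptors 1 of 8 members passed the filter. NTN4, a basement membrane netrin, was the 1 netrin tested, at 28.0 ± 2.01 and 27.1 ± 1.40 FPKM (log2 difference -0.05, adjusted p = 0.793), and NTN1, NTN3 and NTN5 lay below the filter. The 4 UNC5 receptors were all below the filter, UNC5B highest at 0.0933 ± 0.034 and 0.0514 ± 0.031 FPKM with overlapping groups. UNC50, a membrane protein unrelated to these receptors, was at 27.4, 24.7 and 24 FPKM and at 31.5, 30.8 and 27.5 FPKM, without overlap (log2 difference 0.24, adjusted p = 0.138), and UNC5CL was near the filter in both groups.

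A list of 81 further genes of the same pathways, 24 co-receptors and ligand-side partners and 57 intracellular effectors, held 61 tested genes, of which 1 was called lower and 0 higher by limma, with 18 under 0.05 before adjustment beside 2797 of all 14349 tested genes. Their median log2 difference was 0.03, and 3 had an adjusted p under 0.05, which is 4.92% beside 5.13% of all tested genes. The 1 called was NEO1, neogenin, a receptor of netrins and of repulsive guidance molecules, on chromosome 15 from 73344051 to 73597546, plus strand (GRCh37). It was at 4.37, 3.71 and 3.95 FPKM in shNT and at 0.534, 0.751 and 0.820 FPKM in labelled shGPR81. Every labelled shGPR81 library was far below every shNT library, and the means of 4.01 ± 0.335 and 0.702 ± 0.149 FPKM differed 5.72-fold. NEO1 fell by 2.37 on the log2 scale (SE 0.17, adjusted p = 0.000729), and with each library left out the difference was -2.48 to -2.21. RGMB, a repulsive guidance molecule that binds neogenin, was at 17.9 ± 0.0909 and 23.9 ± 0.541 FPKM, without overlap, and its difference of 0.41 (SE 0.05) had an adjusted p of 0.00472 but a fold under 1.5. DCC, the other classical netrin receptor, was at 4, 9 and 6 reads in shNT and at 27, 32 and 41 reads in labelled shGPR81. Its reads differed 5-fold (95% Clopper-Pearson interval 3.04 to 8.65, counting error only), and its log2 difference of 1.17 (SE 0.29) had an adjusted p of 0.0672. DCC passed the filter through the labelled shGPR81 libraries alone, at 0.0453 ± 0.0174 and 0.228 ± 0.0496 FPKM.

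Of the 45 tested effectors, which carry these receptors' signals to the actin skeleton, 0 were called in either direction by limma, and 14 were under 0.05 before adjustment, beside 2797 of the 14349 genes tested. VAV2, an exchange factor for small GTPases, was the 1 effector with an adjusted p under 0.05, at 12.1 ± 0.204 and 14.5 ± 0.341 FPKM (log2 difference 0.26, adjusted p = 0.0436). The abundant GTPases RHOA, RAC1 and CDC42 had differences of -0.04, 0.00 and 0.03, and the actin-severing protein CFL1 a difference of 0.08, all with overlapping groups. TIAM2, an activator of RAC1, had the highest difference of the list among effectors (0.53, adjusted p = 0.119), and RND1, a small GTPase that binds plexins, the lowest (-0.66, adjusted p = 0.373).

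**Figure D4:**
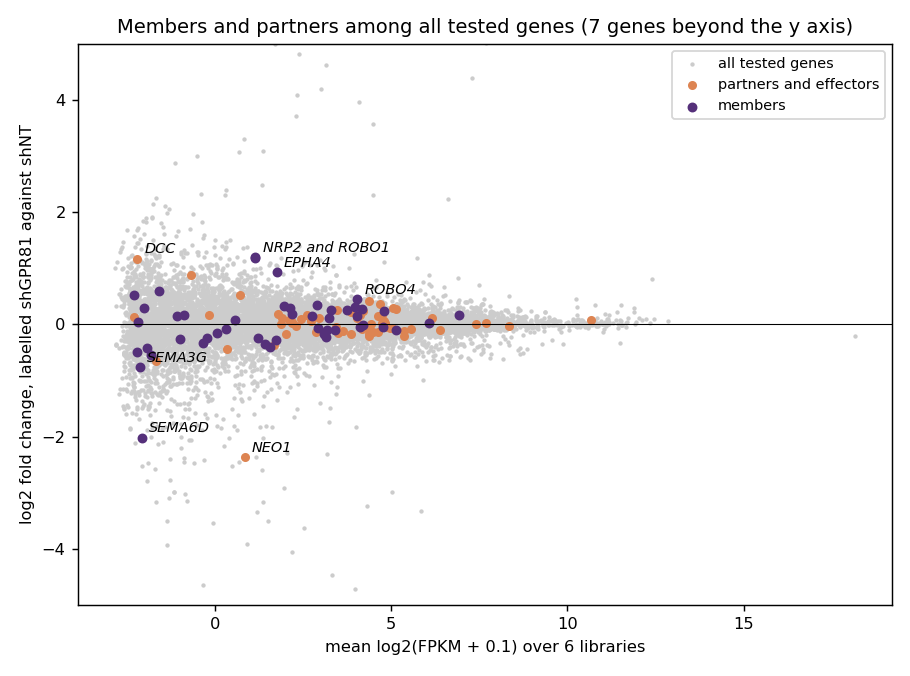
Log2 difference (labelled shGPR81 minus shNT) against the mean log2(FPKM + 0.1) over 6 libraries for all 14349 tested genes (grey), members (purple) and partners and effectors (orange), with 7 genes outside the y axis. NRP2 and ROBO1 lie on top of each other at the upper edge of the members, EPHA4 just below, and SEMA6D and NEO1 are the lowest of the coloured points, while most members sit near 0.

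By role, the 25 tested ligands held 0 called higher and 1 lower, with 11 positive and 14 negative differences and a median of -0.07. The 21 tested receptors held 3 called higher and 0 lower, with 12 positive and 9 negative differences and a median of 0.08. Of all tested genes 0.955% were called higher and 1.59% lower, beside 14.3% of receptors higher and 4% of ligands lower. NRP2, 1 of the 3 receptors, was named by the choice of the set. SEMA6D, the 1 ligand, passed the filter through the shNT libraries alone, so these shares are no independent support. Whether ligands and receptors differ was not tested. The summed FPKM of the ligands was 165 ± 6.3 in shNT and 173 ± 3.33 in labelled shGPR81, and that of the receptors 304 ± 21.8 and 329 ± 9.39. The called members lie on chromosomes 2, 3 and 15. On chromosome 20 there were 0 members. The median there was -0.40 over 268 tested genes, those with higher levels. The largest positive median was 0.10 over 358 such genes on chromosome 9, where SEMA4D and the effector VAV2 lie. Whether the chromosome has a part in any result was not tested.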

How the data were processed

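RNA-seq libraries of MDA-MB-231 cells were compared in 2 groups of 3, taken from the labels. The authors mapped the reads with TopHat2 2.0.13, Bowtie2 2.2.3 and SAMtools 0.1.19, and their processing notes name Cuffnorm 2.2.1. The study's methods name the human genome (GRCh37) and the deposited description names mm10 (mouse), and the former was used here since the cells are human. The annotation and the scaling of the libraries were not given in the sources used here. The authors deposited FPKM, 1 value per gene symbol and library, of which 8456 symbols were at 0 in all 6 libraries.

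Values were tested as log2(FPKM + 0.1) by limma 3.58.1 (R 4.3.3; lmFit, then eBayes with a trend) without a block, and the script was tested on simulated data. Reads were recovered where a gene's 6 values, rescaled for library, were whole-number multiples of a common step within a tolerance of 0.0001 and with at most 400 reads, which held for 5296 of 15931 genes. Of these, the 4565 with an annotated transcript whose step implied a length of at most 2 times the longest annotated transcript were kept, 21 members among them. Library totals use the longest GENCODE 44 transcript on GRCh37, and over genes their quartiles span 8260173 to 13965288 reads. The chi-square between replicates was 1.31 to 2.81 for each gene on average (1 under counting noise alone), so no pair of libraries was treated as the same library, which does not show that they came from separate cultures. Same-numbered libraries had deviations correlated at 0.12, 0.0223 and 0.00577 across genes, so the numbers do not pair the libraries.

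The members, the partner and marker lists and the tests were chosen with earlier results of these data known. The genes named by rule were HCAR1, SEMA5A, NRP2, each member and partner called, the most abundant member of each family, and the 5 members with the largest differences in each direction. Other genes named were chosen after their values were seen. Alternatives were 2 other filters (1 FPKM, none), pseudocounts of 0.01 and 1, quantile normalization, centring on the median, treat in limma, a replicate block and leaving out each library. For SEMA5A the fit without a filter was combined with the other alternatives, which was chosen after seeing the data.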

Additional observations from a re-analysis of the deposited data

How the results depend on the processing

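Of 366 values of the 27 named genes under the alternatives, 359 kept their direction and their side of the threshold. Limma's treat, which tests against a fold of 1.5 itself, called 0 members higher in place of 3 and 0 lower in place of 1, with adjusted p of 0.132 for ROBO1, 0.144 for NRP2, 0.331 for EPHA4 and 0.115 for SEMA6D, and it still called NEO1. SEMA6D was not called with a pseudocount of 1 (log2 difference -0.44), and it was not tested with the filter of 1 FPKM, so 0 members were called lower under either. That filter, which leaves fewer low genes, gave a median of 0.106 for the tested members in place of 0.035. Without a filter DCC was called, so 1 partner was higher in place of 0. With each library left out, 3 members were called higher and 1 lower throughout, 1 partner was lower and 0 were higher, and the median of the members ranged from 0.003 to 0.053. The differences of NRP1 and SLIT2 lie near 0 and changed sign without labelled shGPR81 replicate 2 (NRP1, -0.00, in a range up to 0.03) and replicate 3 (SLIT2, 0.02, in a range down to -0.15). The replicate block left 3 members higher and 1 lower with a median of 0.035, and changed no call among the named genes, and the shared numbers do not pair the libraries. Over all genes the calls differed more: 228 lower and 137 higher became 46 and 9 with treat, 142 and 75 with a pseudocount of 1, and between 121 and 256 lower and between 65 and 152 higher with a library left out. SEMA5A without a filter had log2 differences of -1.55 to -0.09 and was called under none of the alternatives. Genes under about 0.1 FPKM rest on few reads, and for them these data cannot show a change of moderate size.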
